A study of Mus musculus with 4 samples.

Results

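The genes described here were the cathepsins and the subunits of the vacuolar proton pump (V-ATPase). They were chosen by symbol alone: every matrix row named Cts followed by 1 letter, or starting with Atp6v or Atp6ap. Ctsg, Ctsk and Atp6v0d2 were left out of the members, because these genes served as markers to assign cell types. This gave 40 of the 31053 genes in each matrix, of which 16 were cathepsins and 24 belonged to the V-ATPase (13 of the cytosolic V1 sector, 8 of the membrane V0 sector and 3 accessory proteins).

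Cathepsins are proteases of the lysosome. Most are cysteine proteases, Ctsd and Ctse are aspartic proteases, and Ctsa is a serine carboxypeptidase that also protects other lysosomal enzymes. The V-ATPase burns ATP in its V1 sector to drive protons through its V0 sector, which acidifies lysosomes so that cathepsins can work. In bone the same pump, placed at the ruffled border of the osteoclast with the a3 subunit Tcirg1 and the d2 subunit Atp6v0d2, acidifies the resorption pit, where cathepsin K degrades collagen.

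Single-cell RNA sequencing (10x Genomics 3′ v3.1) was applied to cells digested from tibiae and femurs after the marrow had been flushed. All mice were wild type (C57BL/6J in the methods of the study). There were 2 libraries from hindlimb-unloaded mice (HLU, tail suspension for 28 d) and 2 from control mice (Ctrl, no suspension). The age is given differently by the series text, which names postnatal day 28, and by the methods, which describe adult mice, so no age is used here. Tail suspension removes the load from the hind limbs only, and the digest left out cells that could not be freed from bone.

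After filtering, 7340, 7635, 7757 and 9485 barcodes remained in Ctrl 1, Ctrl 2, HLU 1 and HLU 2, with median depths of 6294.5, 5787, 3799 and 6147 UMIs (unique molecular identifiers, 1 per captured transcript molecule). Between 23 and 36 barcodes were shared by any 2 libraries. A barcode was assigned to 1 of 21 cell types by the mean z-score of fixed marker genes, none of them a member, and 22052 of 32217 barcodes (68.4%) received a type. Types are ranges of a score, written here as "-like", and 1861 of the assigned barcodes (8.44%) lay near a cut. The makeup of the libraries differed strongly. Cartilage, bone, stromal and connective tissue gates held 45.2% and 38.8% of the UMIs in the Ctrl libraries but 1.97% and 1.25% in the HLU libraries, while neutrophil gates held 16.2%, 24.6%, 54.2% and 55.1%. HLU 2 stood apart from the other libraries within most blood cell gates. Counts of HLU calls are therefore given with and without it or its partner below, except for mature B cells and T cells. The skeletal transcripts named below are a fixed list of 14 cartilage and bone matrix genes.

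Levels are UMIs per 1000000 UMIs (CPM) of the sum over 1 gate in 1 library. Since the 3′ assay counts each transcript once, whatever its length, levels of different genes could be compared per molecule captured. Over the gates with at least 10 barcodes in a library, the summed level of 12 cathepsins (4 placental members were near 0 and left out of the sum) ran from 725 CPM in megakaryocyte-like cells to 9201 CPM in macrophage-like cells. It was 7074, 6861, 9298 and 6287 CPM in the Arg1/Gpnmb cell-like gate, a mononuclear phagocyte state marked by Arg1, Inhba, Gpnmb and Trem2. In monocyte-like cells it was 3478, 3833, 4536 and 4408 CPM. Every library of the Arg1/Gpnmb gate was above every library of the monocyte gate. Over the barcodes of the Arg1/Gpnmb gate, the median share of UMIs was 0.225% for its own markers and 0.369% for the mature neutrophil markers. The part of neutrophil RNA in its levels was not tested. Other gates held such markers as well. Monocytes had 0.357% for their own and 0.338% for immature neutrophil markers. Mature neutrophils had 0.756% for their own and 0.772% for immature neutrophil markers.

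Mature neutrophil-like cells held 3274 ± 616 CPM of cathepsins (SD, n = 4) and immature neutrophil-like cells 1484 ± 203. Lymphocytes were low, at 1358 ± 122 CPM in mature B cell-like and 939 ± 209 in T cell-like cells. The V-ATPase varied less. Its 24 genes summed to 3983 ± 566 CPM in the Arg1/Gpnmb gate, 2892 ± 218 in mature neutrophils, 2786 ± 364 in monocytes and 1532 ± 120 in chondrocyte-like cells. The osteoclast-like gate had only 7, 20, 3 and 3 barcodes, and its V-ATPase sum was 4063, 6026, 8585 and 7112 CPM. In 3 of these 4 libraries that was above every value of the other gates named here.

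**Figure D1:**
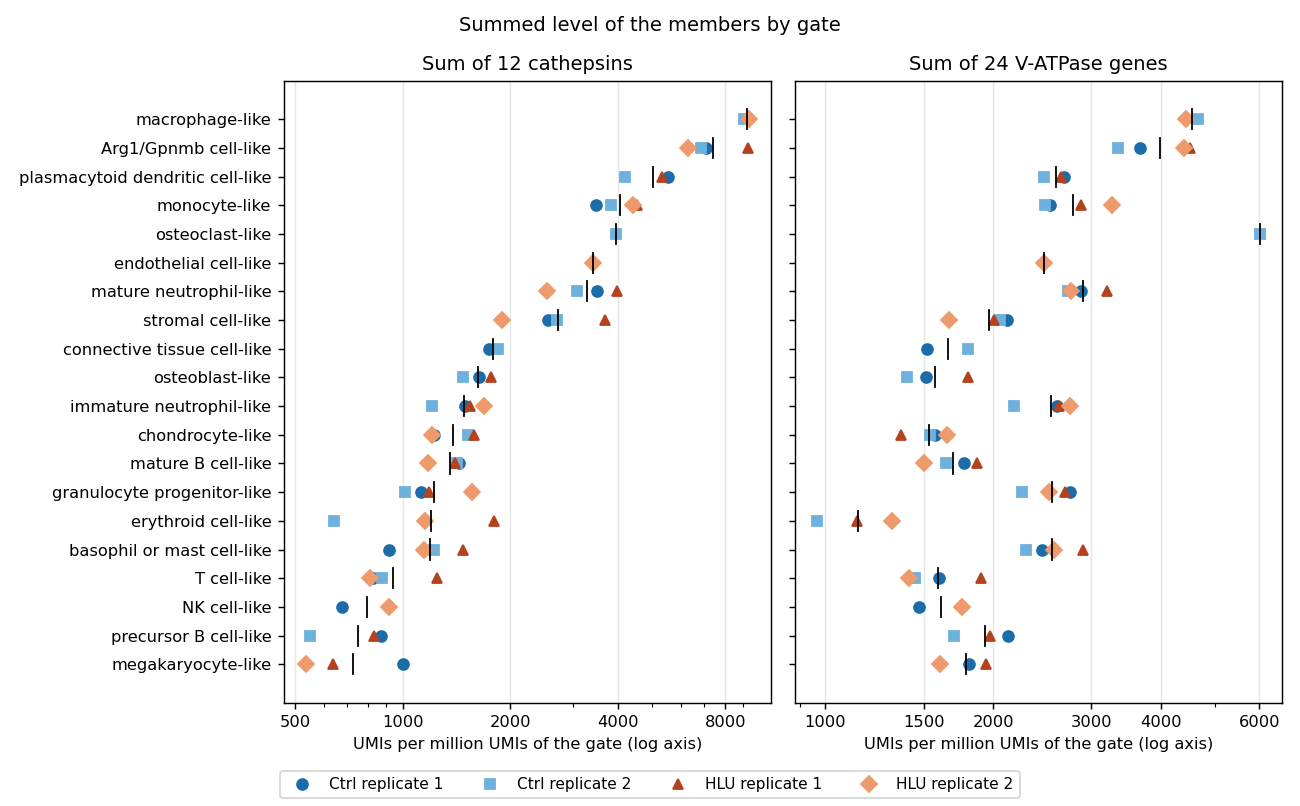
Summed level of 12 cathepsins (left) and of 24 V-ATPase genes (right) in CPM of the gate, on log axes, for every gate and library with at least 10 barcodes; points are libraries and black bars their mean. Cathepsins spread from 725 to 9201 on average, V-ATPase genes over a narrower range.

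The aspartic protease Ctsd led the neutrophil gates, where it gave 64.4% of cathepsin UMIs in mature (range over libraries 55.5% to 75.0%) and 59.1% in immature cells. Its level was 2317, 1882, 2986 and 1406 CPM in mature neutrophils, close to the 2330, 1997, 3598 and 1715 CPM of the Arg1/Gpnmb gate. These ranges overlapped. In the macrophage gate the cysteine protease Ctsb led with 40.04%, at 3367 CPM in Ctrl 2 and 4009 in HLU 2, the libraries with at least 10 such barcodes. Monocytes had no single leader on average, since Ctsz gave 21.03%, Ctsd 20.5% and Ctsb 18.9% of their cathepsin UMIs. The Ctsz share ran from 17.2% to 30.6% over libraries. Ctsz led in HLU 2 and was below Ctsd in the other libraries. Ctsb and Ctsl led the skeletal gates, with 35.9% and 25.3% in stromal cells, whereas chondrocytes had 26.9% Ctsl and 24.4% Ctsb.

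The gate with the highest level differed between cathepsins. Ctsc, which activates the serine proteases of granules, was highest on average in monocytes at 420, 446, 389 and 437 CPM. The macrophage gate came next with a mean of 366 CPM, and its range of 135 to 596 CPM overlapped that of monocytes. Ctsh reached a mean of 880 CPM and Ctsl, which trims the invariant chain in antigen presentation in some cells, 1260 CPM in plasmacytoid dendritic cell-like barcodes, but the skeletal transcripts summed to 12509 and 49653 CPM in the Ctrl libraries of that gate, and their part in the Ctsl level was not tested. Ctsl was not confined to that gate, with 901 CPM in osteoclast-like barcodes (1 library) and a mean of 726 CPM in the Arg1/Gpnmb gate. Ctsw was highest in natural killer cell-like (42.2 CPM) and T cell-like barcodes (23.9 CPM), and Ctse in erythroid cell-like ones (239 CPM, range 67.0 to 419). Ctsf was highest in osteoblast-like (58.4 CPM), chondrocyte-like (50.1 CPM) and connective tissue cell-like ones (49.9 CPM). Those ranges overlapped between neighbours for Ctsf and not for Ctsw or Ctse.

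Of the 40 members, 9 had at most 8 UMIs in all barcodes: Ctsj, Ctsm, Ctsq and Ctsr, which are known from the placenta, and Atp6v1g3, Atp6v1b1, Atp6ap1l, Atp6v1c2 and Atp6v1e2. Ctsm and Ctsq had none. The proteolipid Atp6v0c, which forms the rotor ring of V0 and is expected in every cell, had 1162 UMIs against 94173 of Atp6v0b, its partner in the ring. The annotation (GENCODE M21) holds 2 processed pseudogenes of it, Atp6v0c-ps1 on chromosome 7 and Atp6v0c-ps2 on chromosome 6, which are not rows of the matrices; reads shared with a near-identical copy can be lost in counting, so its level is uncertain.

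**Figure D2:**
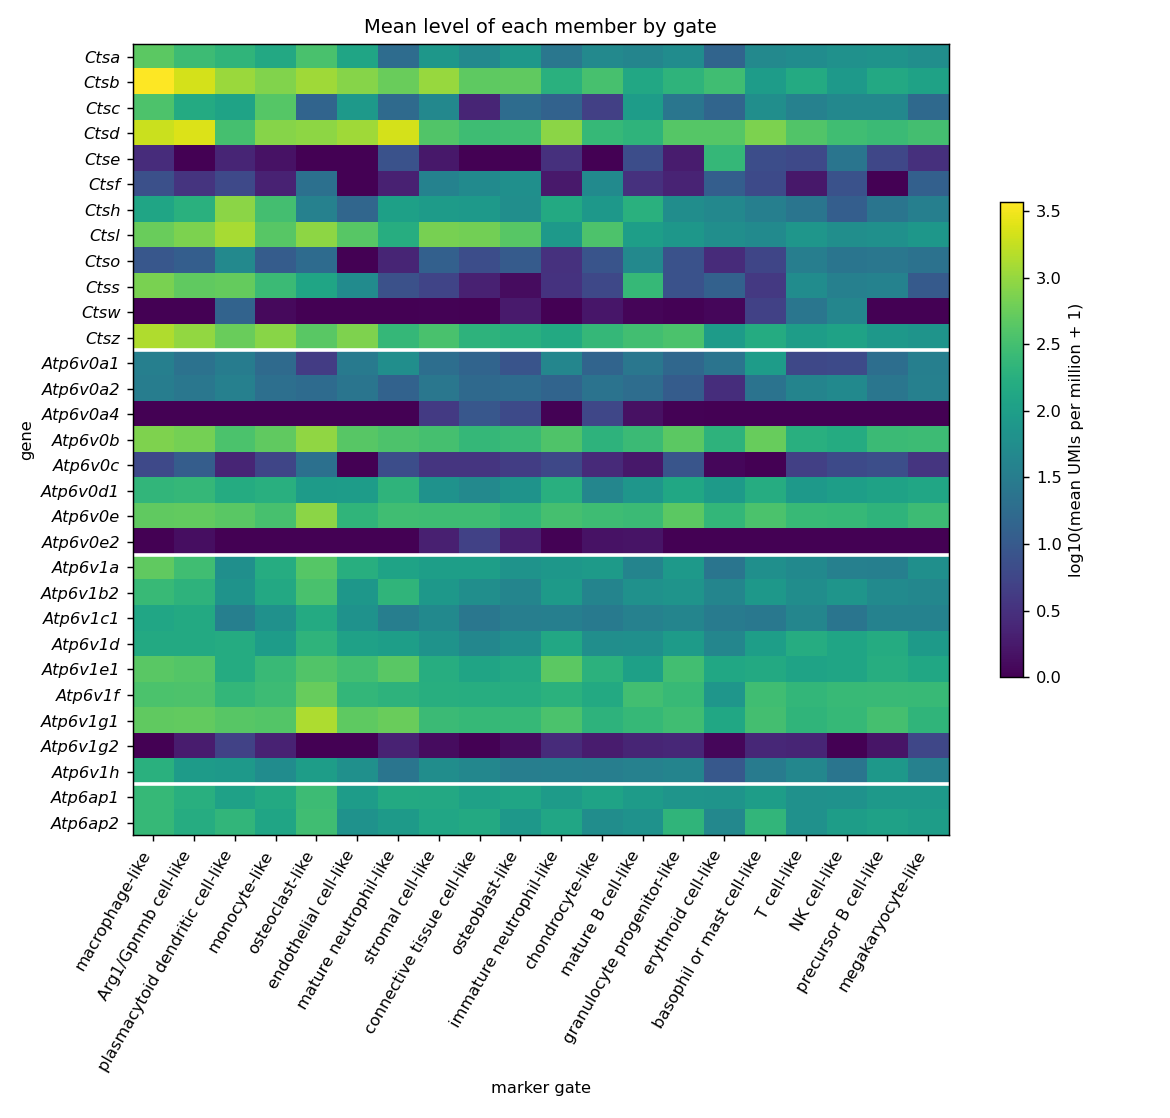
Mean level of each member with at least 100 UMIs (rows, cathepsins on top, then V0, V1 and accessory genes) in each gate (columns), as log10 of mean CPM plus 1. Ctsb and Ctsd are brightest in the macrophage and Arg1/Gpnmb columns, and Ctsd in mature neutrophils.

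The membrane subunit a of V0 has 4 genes, which decide where in the cell the pump is placed. Shares of a-subunit UMIs within a library do not depend on scaling. Tcirg1 (a3), which was not a member and not a gate marker, gave 71.7% of them in monocytes (95% exact interval 70.2 to 73.2, counting error only), at 79.0%, 75.5%, 78.0% and 68.9% in the 4 libraries. In mature neutrophils Atp6v0a1 (a1) led instead with 65.5% (62.7 to 68.2), at 68.7%, 58.6%, 67.5% and 66.1%. The libraries of the 2 gates did not overlap for either gene.

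The CPM levels showed the same order. Atp6v0a1 was at 7.61, 16.3, 16.9 and 23.4 CPM in monocytes and 53.8, 45.3, 76.6 and 52.3 CPM in mature neutrophils, while Tcirg1 was at 78.2, 102, 125 and 114 CPM against 15.0, 21.6, 24.7 and 10.3 CPM. With edgeR's quasi-likelihood test and the library as a block, Atp6v0a1 was lower in monocytes, at −2.67 on the log2 scale (SE 0.247, adjusted p = 0.000101) and Tcirg1 higher by 1.77 (SE 0.215, adjusted p = 0.000315). Within the neutrophil line, the Tcirg1 share was 70.5% in granulocyte progenitors, and in immature neutrophils Atp6v0a1 had 47.0%. Basophil or mast cell-like barcodes had 71.6% Atp6v0a1 and T cells 62.6% Atp6v0a2 (a2).

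The osteoclast gate had 90.9% Tcirg1 (85.4 to 94.8), with Atp6v0a1 at 0, 1, 0 and 0 UMIs. The kidney-type subunit Atp6v0a4 (a4) had 14.0% in chondrocytes, 17.4% in connective tissue cells and 9.6% in stromal cells, but 0 of 3498 a-subunit UMIs in monocytes. Among the d subunits, the gate marker Atp6v0d2 gave 77.0% in osteoclasts, which the gate itself fixes. It was also found in stromal (12.01%) and connective tissue cells (20.7%). In the Arg1/Gpnmb gate, with 31, 70, 24 and 125 barcodes, it was at 0%, 0%, 24.1% and 2.10%, highest in HLU 1, and the difference between libraries was not tested.

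**Figure D3:**
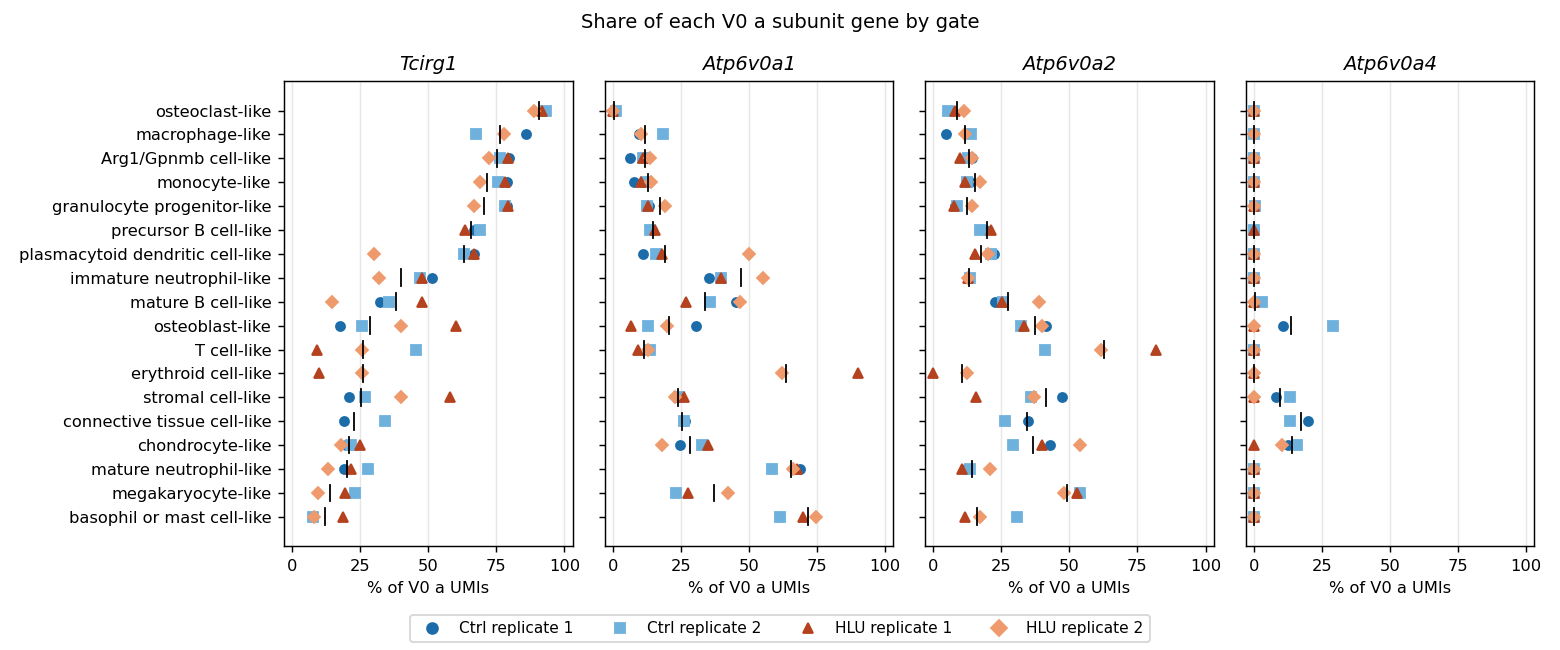
Share of each V0 a subunit gene among all a-subunit UMIs of a gate, in percent, for libraries with at least 10 such UMIs; points are libraries and black bars the pooled share. Tcirg1 leads in osteoclast, macrophage, Arg1/Gpnmb and monocyte gates, Atp6v0a1 in mature neutrophils and basophil or mast cells.

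The next comparisons asked how the members differed between related phagocytes of the same library, and each used all 4 libraries. Those of macrophages, osteoclasts and Arg1/Gpnmb cells share their monocyte sums, so their results are not independent of each other. Cells of the Arg1/Gpnmb gate had more Ctsb, Ctsd and Ctsa and more of several V1 subunits than monocytes. Ctsb, which the study used to mark cells on the way to osteoclasts, was at 2330, 1867, 2513 and 1911 CPM in the Arg1/Gpnmb gate and at 620, 732, 936 and 787 CPM in monocytes. The 2 gates did not overlap, and Ctsb rose by a log2 fold change of 1.57 (SE 0.146, edgeR adjusted p = 0.000223).

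Ctsd was at 656, 698, 1006 and 1008 CPM in monocytes, below all values of the Arg1/Gpnmb gate given above, and rose by 1.57 (SE 0.177, edgeR adjusted p = 0.000655). The V1 subunit Atp6v1c1, which also serves in the osteoclast pump, was at 118, 91.4, 203 and 179 CPM against 49.8, 39.98, 62.3 and 96.7 CPM. Its log2 fold change was 1.33 (SE 0.174, edgeR adjusted p = 0.00163), although HLU 2 monocytes were above Ctrl 2 Arg1/Gpnmb cells. Ctsa rose by 1.08 (SE 0.146, edgeR adjusted p = 0.00186), from 119, 142, 169 and 129 to 248, 274, 357 and 239 CPM with no overlap.

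In all, 12 of the 25 members tested were called higher (5.84% of the 8065 genes tested were) and 1 lower (4.53% of genes). The other 8 called higher were Ctss, the catalytic V1 subunit Atp6v1a, Atp6v1h, Atp6v1d, Atp6v1e1, Atp6v1b2, Atp6v0e and Atp6v0b, with log2 fold changes between 0.50 and 1.01. All 16 V-ATPase members tested had positive fold changes, with a median of 0.55 beside −0.01 over all genes. The 1 member that fell was Ctsc, by −1.51 (SE 0.297, edgeR adjusted p = 0.0118), at 110, 211, 54.3 and 223 CPM against 389 to 446 CPM in monocytes. These gates did not overlap.

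Genes beside the members moved with them. Of 24 other lysosomal hydrolases and activators tested, 10 were higher and 0 lower, among them the protease legumain (Lgmn, log2 fold change 1.54), the lipase Lipa (1.53), the galactosidase Gla (1.76) and the saposin precursor Psap (1.38). Of 14 lysosomal membrane genes 4 were higher, including Cd68 (1.89) and Cd63 (2.35), and 1 lower (Laptm5, −0.62). The inhibitor Cstb, which blocks cysteine cathepsins, rose by 1.51, and Cst7 fell by 1.52. Ctsk, the collagen-degrading cathepsin and a marker of the osteoclast gate, was at 46.2, 53.2, 577 and 163 CPM against 15.2, 5.92, 4.39 and 1.97 CPM, and rose by 5.14 (SE 0.808, edgeR adjusted p = 0.00389). The MiT/TFE transcription factors, known as regulators of lysosomal genes, gave 0 calls among 4.

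Without Ctrl 1 the calls were 6 higher and 0 lower, and without Ctrl 2 they were 6 and 1. The shares of all genes called in those fits are not given here. Transcripts of other kinds were called higher in the Arg1/Gpnmb gate as well, and their part in the result was not tested. They were 4 of 11 immediate early and heat shock genes (Hspa1b 1.98, Hspa1a 1.97, Atf3 1.28 and Dnajb1 0.95), 1 of 7 neutrophil transcripts (Retnlg 1.16) and 9 of 11 skeletal transcripts. The immediate early and heat shock genes summed to 4328, 2909, 2716 and 1423 CPM in the Arg1/Gpnmb gate against 1986, 2400, 1870 and 1591 CPM in monocytes. The neutrophil transcripts summed to 4453, 16555, 11636 and 12393 CPM against 4201, 6863, 10872 and 12491 CPM. The skeletal sum was 12870, 10448, 880 and 2660 CPM there against 2924, 2753, 421 and 339 CPM in monocytes. HLU 1 had the lowest skeletal sum in this gate. Its log2 ratios of Ctsb, Ctsd and Ctsa between the gates were 1.43, 1.84 and 1.09. They lay within the range of the other libraries for Ctsb and were the highest of the 4 for Ctsd and Ctsa. HLU 1 held only 24 barcodes of this gate and also had its highest Ctsk level and Atp6v0d2 share, given above. What part these had in the ratios was not tested.

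**Figure D4:**
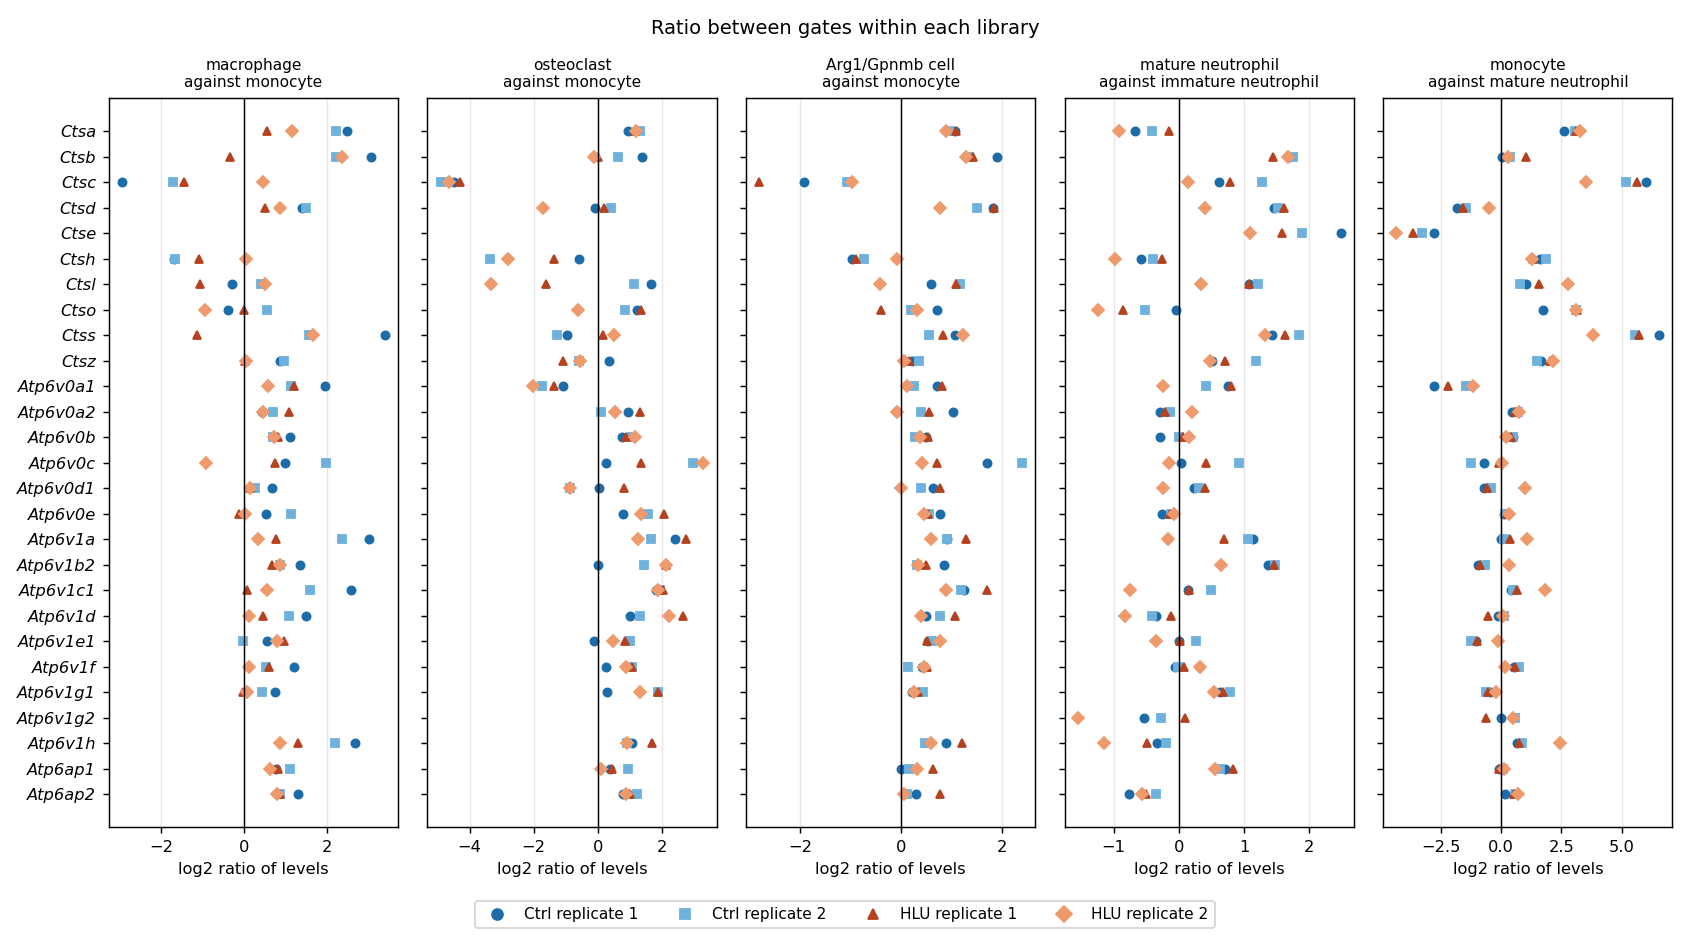
Log2 ratio of each member's level between a pair of gates within each library (points; unscaled CPM with 0.5 UMI added), in the 5 comparisons between gates. Ctsb, Ctsd, Ctsa and every V1 subunit plotted lie right of 0 in the 4 libraries for Arg1/Gpnmb cells against monocytes, and Ctsc lies left.

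Promoters are shown for the 4 members that were called higher in that comparison and hold the palindrome TCACGTGA, and for Ctsc, which fell and has no match. Of the other 8 called higher, Ctss, Atp6v1d, Atp6v1e1 and Atp6v0b had a promoter without it, and Ctsb, Atp6v1c1, Atp6v1h and Atp6v1b2 had no entry. Atp6v0d1 holds it and was not called. The shorter core CACGTG is bound by basic helix-loop-helix factors, to which the MiT/TFE factors belong. The sequences are from RefSeq (GRCm38.p6), from 250 bases before to 50 bases after the start of transcription, printed 5′ to 3′ on the strand of the gene, with TCACGTGA in capitals and any further CACGTG left in lower case. They are Ctsa at chr2:164833523-164833822 (plus strand), Ctsd at chr7:142387778-142388077 (minus strand), Atp6v1a at chr16:44139210-44139509 (minus strand), Atp6v0e at chr17:26676146-26676445 (plus strand) and Ctsc at chr7:88277835-88278134 (plus strand).
Ctsa: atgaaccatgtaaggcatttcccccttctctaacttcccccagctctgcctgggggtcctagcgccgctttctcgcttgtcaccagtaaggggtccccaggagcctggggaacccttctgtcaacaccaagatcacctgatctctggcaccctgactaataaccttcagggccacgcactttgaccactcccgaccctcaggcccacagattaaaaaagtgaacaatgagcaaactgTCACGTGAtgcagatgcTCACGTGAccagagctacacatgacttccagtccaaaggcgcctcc
Ctsd: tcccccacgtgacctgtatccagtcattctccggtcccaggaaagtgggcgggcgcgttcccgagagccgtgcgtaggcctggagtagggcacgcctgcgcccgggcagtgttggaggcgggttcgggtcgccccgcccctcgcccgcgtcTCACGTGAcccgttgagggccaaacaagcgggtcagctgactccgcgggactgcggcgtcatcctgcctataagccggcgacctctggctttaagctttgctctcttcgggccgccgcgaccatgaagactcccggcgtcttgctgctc
Atp6v1a: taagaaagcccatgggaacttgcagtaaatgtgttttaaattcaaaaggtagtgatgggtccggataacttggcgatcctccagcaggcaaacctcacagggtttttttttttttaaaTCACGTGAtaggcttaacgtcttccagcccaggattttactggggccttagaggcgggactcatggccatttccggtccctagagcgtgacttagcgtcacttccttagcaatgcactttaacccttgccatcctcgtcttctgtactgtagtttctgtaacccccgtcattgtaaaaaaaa
Atp6v0e: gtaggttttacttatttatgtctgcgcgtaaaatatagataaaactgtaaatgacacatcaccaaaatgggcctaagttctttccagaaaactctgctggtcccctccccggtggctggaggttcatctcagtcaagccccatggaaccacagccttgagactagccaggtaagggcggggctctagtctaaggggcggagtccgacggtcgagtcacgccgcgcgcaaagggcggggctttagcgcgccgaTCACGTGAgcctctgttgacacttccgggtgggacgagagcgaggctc
Ctsc: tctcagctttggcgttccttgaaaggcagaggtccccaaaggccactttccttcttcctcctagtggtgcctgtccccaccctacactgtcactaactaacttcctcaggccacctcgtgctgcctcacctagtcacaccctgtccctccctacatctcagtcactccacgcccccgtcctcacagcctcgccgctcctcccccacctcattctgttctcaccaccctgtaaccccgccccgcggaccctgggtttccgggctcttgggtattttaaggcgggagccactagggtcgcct

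Promoters were found for 30 of the 40 members. TCACGTGA, which is its own reverse complement and so covers both strands, was in 5 of these 30 (Atp6v0d1, Atp6v0e, Atp6v1a, Ctsa and Ctsd), beside 1.12% of the 27025 genes with a promoter. The core CACGTG, which every TCACGTGA contains, was in 8 of 30 members (26.7%), beside 8.09% of genes. In the lists of other lysosomal genes TCACGTGA was in 3 of 34 (Cln3, Gla and Mcoln1). The Ctsa promoter printed, 1 of 2 starts listed for this gene, held 2 matches, and its other start held 0. A match is a description of these letters, not a site shown to be bound.

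Macrophage-like cells, marked by complement C1q genes, numbered 7, 16, 5 and 71, below the minimum set for such tests, and were compared with monocytes as an added test. Ctsb was at 5160, 3367, 727 and 4009 CPM in them, above every monocyte library except in HLU 1. Of 23 members tested, 4 were called higher (2.95% of genes) and 0 lower (2.30% of genes). These were Ctsb (log2 fold change 1.82, SE 0.440, edgeR adjusted p = 0.0104), Ctsa (1.52), Atp6v1a (1.53) and the V1 regulator Atp6v1h (1.62). All 15 V-ATPase members tested were positive, with a median of 0.69 beside −0.08 over all genes. The number of calls depended on the library left out, with 0 without Ctrl 1, 1 without Ctrl 2 and 7 without HLU 2. The shares of all genes called in those fits are not given here. Immediate early and heat shock transcripts summed to 17980 CPM in Ctrl 1 and to 1942 to 2724 CPM in the other libraries of that gate, and their part in the result was not tested. Over the barcodes of the macrophage gate, the median share of UMIs was 0.335% for its own markers and 0.495% for the mature neutrophil markers.

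Osteoclast-like cells were compared in the same way. Of 14 V-ATPase members tested 6 were called higher than in monocytes (4.42% of genes) and 0 lower (7.82% of genes), while Ctsc was lower. Atp6v1a was at 607, 421, 966 and 570 CPM against 116, 134, 145 and 241 CPM in monocytes, a log2 fold change of 1.81 (SE 0.324, edgeR adjusted p = 0.00295) with no overlap. Atp6v1c1 rose by 1.69, Atp6v1d by 1.60 and the B subunit Atp6v1b2 by 1.27. Ctsc had 2, 4, 1 and 1 UMIs, and its log2 fold change was −5.16 (SE 0.388, edgeR adjusted p = 1.1e-05). Ctsh was also lower, at −2.09.

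Of 23 members tested in osteoclasts, 7 were higher (4.42% of genes) and 2 lower (7.82% of genes). Scaling by plain totals instead of TMM moved the median of all genes by 0.21 and gave 10 higher and 2 lower. Without Ctrl 2, which held 20 of the 33 barcodes, 3 were higher and 1 lower. The shares of all genes called in these alternatives are not given here. Skeletal transcripts summed to 8194, 26700, 595 and 303 CPM in this gate. Neutrophil transcripts reached 38306 CPM in HLU 1 and 780 to 6599 CPM in the others. The part of either in these results was not tested.

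Maturation of neutrophils was examined by the mature against the immature gate. All 9 cathepsins tested were called, 7 of them upward, where 64% of the 8689 genes tested were called and 31.2% upward. Ctsb was at 606, 570, 451 and 649 CPM in mature and 188, 168, 166 and 204 CPM in immature cells, and rose by 1.70 (SE 0.123, edgeR adjusted p = 5.7e-06). Ctsd rose by 1.31 (SE 0.185, edgeR adjusted p = 0.000254) from 844, 657, 971 and 1062 CPM. Neither gene overlapped between the gates.

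Ctse and Ctss rose by 1.70 and 1.62 from levels below 5 CPM. Ctsh fell by 0.49 and Ctsa by 0.48. The V-ATPase was mixed. Atp6v1b2 rose by 1.30 (SE 0.156, edgeR adjusted p = 9.8e-05), from 91.0, 72.8, 112 and 74.1 to 236, 202, 310 and 116 CPM, and Atp6ap1, Atp6v1a, Atp6v1g1 and Atp6v0a1 also rose. Atp6v1h, Atp6v1d and the accessory receptor Atp6ap2 fell by 0.49, 0.37 and 0.48.

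In total 12 of 25 members were higher (31.2% of genes) and 5 lower (32.8% of genes), so the shares of members called stand beside a background of similar size. The counts without Ctrl 1 were 11 and 0, and the share of all genes called in that fit is not given here. Of the other lists, 3 of 3 MiT/TFE factors tested were higher and 4 of 5 Ragulator genes, which tether mTORC1 to the lysosome, were lower. Immediate early and heat shock genes moved as well, with 7 of 12 higher. Cstb rose by 1.98, Cd68 by 1.94 and Psap by 1.47. The skeletal transcripts called were all higher in mature neutrophils, among them Col1a2 (1.32), Clu (1.05) and Lum (0.997). Their part in the result was not tested.

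Monocytes and mature neutrophils differed in which cathepsins they held. Ctss, known for antigen presentation, was at 224, 306, 370 and 159 CPM in monocytes and 2.04, 6.33, 6.86 and 11.2 CPM in mature neutrophils, a log2 fold change of 4.41 (SE 0.469, edgeR adjusted p = 0.000169). Ctsc was higher by 4.15 (SE 0.475, edgeR adjusted p = 0.000235), at 389 to 446 CPM against 6.13, 12.3, 7.78 and 38.1 CPM. Ctsa was higher by 2.22 and Ctso by 2.16, although Ctso had few UMIs in mature neutrophils of Ctrl 1 (given below). In the other direction Ctse was at −4.74, Atp6v0a1 at −2.67 (levels above), Ctsd at −2.16 and Atp6v1e1 at −1.67. The Ctse fold is between low levels, with a mean of 7.001 CPM in mature neutrophils beside 2148 CPM for Ctsd. The skeletal transcripts called were all lower in monocytes, among them Col1a1 (−3.06), Col1a2 (−1.97), Cytl1 (−1.94) and Col2a1 (−1.91). Their part in the result was not tested.

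In this comparison 6 of 26 members were called higher (36.1% of genes) and 12 lower (33.7% of genes). The direction of the V-ATPase depended on the scaling: TMM gave 0 of its 16 tested members higher and 10 lower, whereas plain totals shifted the median of all genes by 0.84 and gave 6 higher and 3 lower. The split over all genes moved from 3391 higher and 3162 lower to 5103 and 1572. Ctss, Ctsc, Ctsa, Ctso, Ctsz and Ctsh stayed higher and Ctse, Ctsd, Atp6v0a1, Atp6v1e1 and Atp6v1g1 stayed lower under both, while Atp6ap1, Atp6v0b and Atp6v0e changed sign.

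HLU was compared with Ctrl inside each gate with at least 20 barcodes in every library. The libraries, 2 per group, were the replicates. The methods of the study give 2 mice per group, and the labels do not tie a library to a mouse. The p-values therefore measure the spread between libraries, which may be technical. With edgeR, no member was called in granulocyte progenitors (0.209% of genes called), immature neutrophils (1.52%), mature neutrophils (0.732%), monocytes (0%), the Arg1/Gpnmb gate (0%), T cells (0.588%) or chondrocytes (0%). In 3 of these gates edgeR called 0 genes. Genes with an unadjusted p under 0.05 numbered 419 of 9777 tested in monocytes and 441 of 5648 in the Arg1/Gpnmb gate. In chondrocytes they numbered 1594 of 12017. The share was below 0.05 in monocytes and above it in the Arg1/Gpnmb gate and chondrocytes. Members with an unadjusted p under 0.05 numbered 2 in immature neutrophils, 1 in mature neutrophils, 1 in T cells, 3 in chondrocytes and 0 in the other gates of this list, and DESeq2 called 1 member, in immature neutrophils, and 0 in the others. An exact permutation test of 2 against 2 libraries cannot give a p below 0.333.

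The 1 member called was Ctsl in mature B cells. It was at 215 and 122 CPM in the Ctrl and 40.8 and 20.002 CPM in the HLU libraries (95, 136, 96 and 25 UMIs), with both HLU values below both Ctrl values. Its log2 fold change was −2.52 (SE 0.413, edgeR adjusted p = 0.0183), 1 of 24 members tested, beside 2.11% of genes called lower. Its direction did not change under the 13 alternatives computed, of which those without a library left 1 library in a group. Skeletal transcripts in the same gate summed to 8652 and 7851 CPM in Ctrl and 138 and 21.6 CPM in HLU, and 10 of 11 were called lower, as was Cst3, a secreted cathepsin inhibitor, by −3.01.

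The part of carried-over skeletal RNA in the Ctsl call was not tested. In Ctrl B cells there were 24.9 and 15.5 Ctsl UMIs per 1000 skeletal UMIs, beside 4.02 and 6.25 in chondrocytes and 17.2 and 22.6 in stromal cells of the same libraries. In HLU B cells there were 295 and 926. The ratio in Ctrl B cells was above that of the stromal gate in Ctrl 1 and below it in Ctrl 2.

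Ctsl was lower in both HLU than in both Ctrl libraries in 4 more gates without being called. It was at 224, 235, 154 and 59.0 CPM in mature neutrophils (log2 fold change −1.05, SE 0.409, edgeR adjusted p = 0.522), at 106, 101, 72.7 and 46.5 CPM in immature neutrophils (−0.78), at 83.6, 97.0, 74.3 and 47.6 CPM in granulocyte progenitors and at 155, 62.7, 39.2 and 39.2 CPM in T cells. Skeletal sums were lower in the HLU libraries of all these gates too, for example 3644, 2971, 374 and 98.3 CPM in mature neutrophils. In monocytes, where skeletal sums fell from 2924 and 2753 to 421 and 339 CPM, Ctsl was at 454, 413, 463 and 409 CPM and its groups overlapped.

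**Figure D5:**
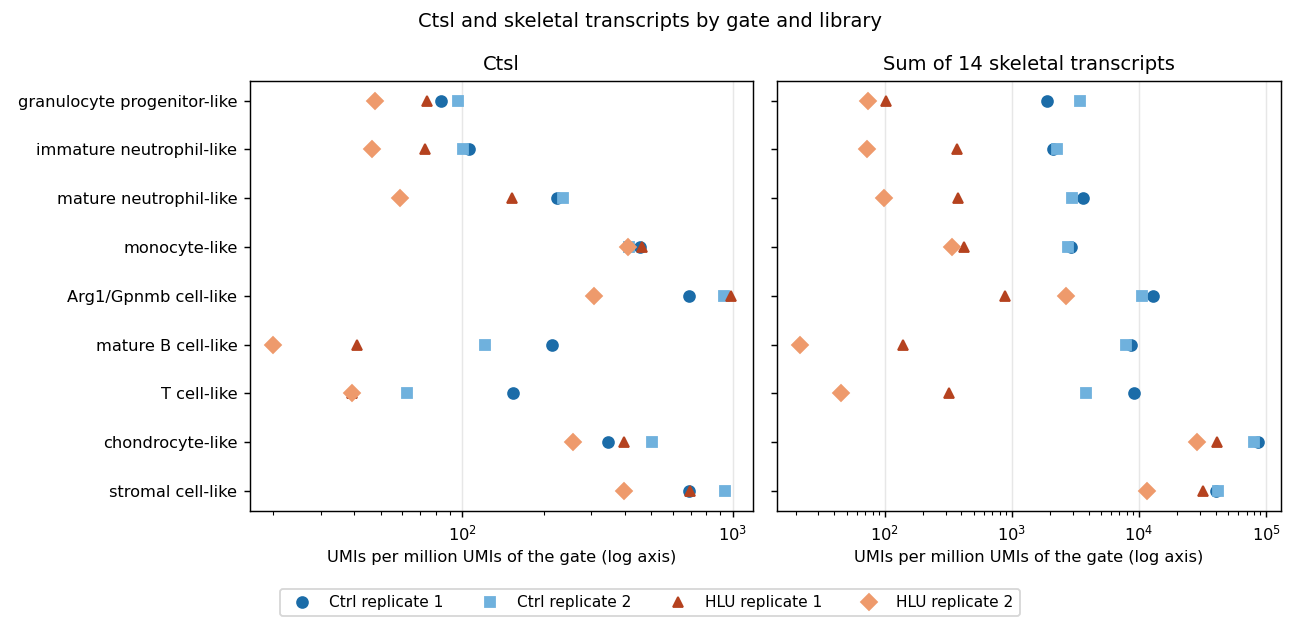
Level of Ctsl (left) and summed level of 14 skeletal transcripts (right) in 9 gates, in CPM on log axes; points are libraries, Ctrl in blue and HLU in orange. HLU points lie below Ctrl points for both in B cells, T cells and the neutrophil line, and for the skeletal sum but not Ctsl in monocytes.

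In the other gates the smallest p-values of members did not pass. Ctsk, beside the members, was called lower in immature neutrophils (log2 fold change −3.47, edgeR adjusted p = 0.0392) on 17, 41, 7 and 7 UMIs. Skeletal sums were also lower in the HLU libraries of this gate, and the part of carried-over skeletal RNA in the Ctsk call was not tested. In the same gate Ctsf had 8, 11, 1 and 0 UMIs (adjusted p = 0.0604 by edgeR), too few for a fold. Chondrocytes numbered 1516, 1417, 31 and 49, and Atp6ap2 was at 75.9, 68.6, 32.9 and 41.0 CPM (log2 fold change −1.26, edgeR adjusted p = 0.238). Ctss in chondrocytes, at 0.983, 1.80, 4.71 and 12.5 CPM, had an edgeR adjusted p = 0.303. In the Arg1/Gpnmb gate these were Atp6v1c1 (0.80, edgeR adjusted p = 0.642) and Atp6v1a (0.54, edgeR adjusted p = 0.691).

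Other pairs of smallest p-values were Ctsl and Atp6v1d (0.61, edgeR adjusted p = 0.591) in mature neutrophils, Ctsl and Ctsa (−0.49, edgeR adjusted p = 0.758) in granulocyte progenitors, and Ctsl and Atp6v1e1 (0.66, edgeR adjusted p = 0.841) in T cells. In monocytes Atp6v0c and Atp6v1c1 came first (1.24 and 0.78, both at an edgeR adjusted p = 0.828). Positive fold changes were found for 8 of 8 V1 subunits tested in monocytes, 8 of 8 in the Arg1/Gpnmb gate, 9 of 9 in immature and 7 of 8 in mature neutrophils, but for 3 of 8 in granulocyte progenitors and 4 of 8 each in B cells, T cells and chondrocytes. None of these was called, and the gates come from the same libraries. Over all genes the median log2 fold change was 0.034 in monocytes, 0.037 in the Arg1/Gpnmb gate, 0.004 in immature and 0.053 in mature neutrophils. It ran from −0.058 in chondrocytes to 0.057 in granulocyte progenitors in the other gates named. The share of all genes with a positive sign is not given here.

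Some members had a level in HLU 2 apart from the other libraries. Ctsz, a cysteine carboxypeptidase, was at 599, 690, 831 and 1348 CPM in monocytes and at 276, 270, 273 and 632 CPM in granulocyte progenitors. Ctsc was at 4.13, 5.08, 4.53 and 34.7 CPM in immature neutrophils, and Ctsh at 375, 393, 357 and 122 CPM in monocytes. In each case HLU 2 lay outside the range of the other 3 libraries. These are examples, and such cases were not counted over all members and libraries.

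Leaving out HLU 1, with HLU 2 as the only HLU library and assumed to vary like the others, gave 9 of 26 members called in granulocyte progenitors (30.8% of all genes called in that fit), 12 of 28 in immature neutrophils (36.5%), 11 of 25 in mature neutrophils (41.6%), 7 of 25 in monocytes (35%), 2 of 24 in the Arg1/Gpnmb gate (9.1%) and 1 of 30 in chondrocytes (4.67%). These counts stand beside backgrounds of similar size. Without HLU 2 immature neutrophils had 1 call (6.27% of genes called) and the others of these gates had 0. Whether the HLU effect differed between monocytes and mature neutrophils was tested by an interaction term, and 0 of 26 members and 0% of genes were called by edgeR, with 477 genes at an unadjusted p under 0.05. Ctsl had the smallest p there (1.14, edgeR adjusted p = 0.9998), followed by Atp6v1c1 (0.77).

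Summed over all barcodes of a library, as a bulk assay would see the tissue, fewer cells of a type and less RNA per cell cannot be told apart. Of 31 members tested, 2 were higher (6.06% of genes) and 4 lower in HLU (17.1% of genes). Ctsf was at 23.6, 22.0, 2.05 and 0.708 CPM (log2 fold change −4.03, SE 0.533, edgeR adjusted p = 0.00864) and Ctsl at 403, 447, 190 and 138 CPM (−1.31, edgeR adjusted p = 0.0296). Atp6v0a4 had 237, 263, 0 and 8 UMIs and Atp6v0e2, an alternative e subunit, 107, 55, 0 and 5 UMIs. Ctsf, Atp6v0a4 and Atp6v0e2 were highest in skeletal gates and Ctsl was a leading cathepsin there, and for each of the 4 the HLU values lay below the Ctrl values. Ctrl levels of the gates and of ungated barcodes were also weighted by their UMI shares in HLU 1 and HLU 2. This gave 6.77 and 5.82 CPM for Ctsf and 259 and 255 CPM for Ctsl. It gave 1.52 and 1.21 CPM for Atp6v0a4 (observed 0 and 0.0913) and 0.683 and 0.543 CPM for Atp6v0e2 (observed 0 and 0.0571). The part of cell makeup was not tested.

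The 2 that rose were Ctse, at 0.764, 1.46, 5.65 and 7.13 CPM (2.60, SE 0.459, edgeR adjusted p = 0.0185), and Atp6v0a1, at 18.4, 19.9, 39.9 and 37.9 CPM (1.09, edgeR adjusted p = 0.0291). Neither overlapped between the groups. Erythroid cell-like barcodes, where Ctse peaks, numbered 8, 16, 57 and 438. Mature neutrophils, where Atp6v0a1 leads the a subunits, held 2.61%, 5.11%, 9.64% and 4.97% of UMIs. Immature neutrophils held 9.04%, 12.7%, 31.7% and 26.8%. The highest mean level of Atp6v0a1 was in basophil or mast cells (93.3 CPM). Ctrl levels weighted by the shares in HLU 1 and HLU 2 gave 2.42 and 2.99 CPM for Ctse and 25.6 and 21.6 CPM for Atp6v0a1. Here too the part of cell makeup was not tested. Leaving out Ctrl 1 or Ctrl 2 left 2 calls each (5.31% and 7.14% of genes called), and leaving out HLU 1 or HLU 2 gave 18 and 15 (47.9% and 37.8% of genes).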

How the data were processed

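Each of the 4 libraries came as a matrix of UMI counts deposited by the authors, made with Cell Ranger 6.0.0 on mm10 with a further step in Seurat 4.1.0 per the labels. The counts are raw whole numbers, in 10000, 10000, 10000 and 10003 barcodes. Barcodes with 1000 to 40000 UMIs and at most 10% mitochondrial UMIs were kept. Types were assigned with 158 marker genes in 21 sets: log1p of counts per 10000, z-scored and capped at 5, with a mean score of at least 0.5, a margin of 0.25 over the next type and 3 markers with a UMI. Doublets were kept in the main values and left out in an alternative (highest Scrublet scores, 0.8% per 1000 barcodes).

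Raw counts were summed per library and type and tested over all genes with edgeR 4.0.16 (R 4.3.3; filterByExpr, TMM, glmQLFit and glmQLFTest, Benjamini-Hochberg adjustment, called at an adjusted p under 0.05). HLU against Ctrl used the group alone, with at least 20 barcodes per library. The interaction term between HLU and gate had no library block. Comparisons between gates had the library as a block, with at least 10 barcodes per gate in at least 3 libraries. Macrophage and osteoclast gates missed that minimum and were tested with at least 3, a choice made after seeing the data. Intervals are exact binomial and cover counting error only.

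Genes were named by a rule: in each comparison up to 4 largest rises and 4 largest falls among those called, or the 2 smallest p-values where none was called, the 3 highest members of a gate, Ctsb, and the neighbours Ctsk, Atp6v0d2 and Tcirg1. Further members called, and genes of the lists, were named after their values were seen. The members and the gene lists were chosen with earlier results of these data known. Sums of skeletal and neutrophil transcripts stand beside some of the results and not all. Totals over genes were 57925383, 61296053, 47819046 and 99849070 UMIs in Ctrl 1, Ctrl 2, HLU 1 and HLU 2. The scripts were tested on simulated data drawn from the real sums. Alternatives were DESeq2 1.42.0, no filter on low counts, each library left out, a haemoglobin filter, stricter and looser gates, equal numbers of barcodes, the replicate or library block, and plain totals (added after seeing the data).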

Additional observations from a re-analysis of the deposited data

Results flagged for a closer look

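The log2 ratios of members between gates were examined in 129 sets of 4 libraries. In 6 sets 1 library lay apart from the other 3 by Dixon's criterion. Chance meets this criterion in about 1 in 20 sets, a share near the one found here. Mature against immature neutrophils gave 3 of them, with HLU 2 low for Ctsd (0.405, others 1.457 to 1.621), Atp6v1b2 (0.649, others 1.373 to 1.472) and Ctsl (0.346, others 1.079 to 1.220). In monocytes against mature neutrophils HLU 2 was high for Atp6v1h (2.449, others 0.650 to 0.888) and Ctrl 1 low for Ctso (1.738, others 3.118 to 3.134), which rests on 3 UMIs in mature neutrophils of that library. Atp6ap2 in macrophages against monocytes was high in Ctrl 1 (1.289, others 0.781 to 0.867), where the gate held 7 barcodes.

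Both Ctrl libraries lay on 1 side of 0 and both HLU libraries on the other in 3 sets. The differences between the groups were not tested. In osteoclasts against monocytes Ctsl was positive in Ctrl and negative in HLU (1.673, 1.128, −1.608 and −3.329, a Ctrl minus HLU difference of 3.869), while skeletal transcripts in the osteoclast sums were at 8194, 26700, 595 and 303 CPM. Ctss in the same comparison had a difference of −1.452, with HLU above. Atp6v1f in mature against immature neutrophils had a difference of −0.239, with no ratio above 0.319 in size.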

How the results depend on the processing

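For 68 results on single members, 855 values under alternatives were computed: 698 kept direction and side of the threshold, 154 kept direction but no longer passed, and 3 changed sign. These 3 were in monocytes against mature neutrophils under plain totals (Atp6ap1 0.0186, Atp6v0b 0.396 and Atp6v0e 0.213 on the log2 scale), which moves the median of all genes by 0.84. Plain totals also moved that median by 0.23 in granulocyte progenitors, −0.13 in mature neutrophils, 0.11 in mature B cells, 0.30 in chondrocytes and 0.21 in osteoclasts against monocytes.

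Counts of members called moved as follows. Where no share of all genes stands beside a count, a change in the members cannot be told from a change over all genes. In HLU against Ctrl they were, in immature neutrophils, 1 with DESeq2, 3 with no filter on low counts and 1 with the replicate block, and, over all barcodes, 12 with DESeq2. Macrophages against monocytes gave 7 with no filter, 1 with no library block, 2 with the stricter gate and 1 with equal numbers of barcodes. Osteoclasts gave 5 with no library block and 5 with equal numbers. Without the library block, Arg1/Gpnmb cells against monocytes gave 3 and mature against immature neutrophils 7. The causes were not tested.

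Leaving out 1 library at a time gave 0 to 9 calls in granulocyte progenitors, 0 to 12 in immature neutrophils, 0 to 11 in mature neutrophils, 0 to 7 in monocytes, 0 to 2 in Arg1/Gpnmb cells, 0 to 1 in chondrocytes and 2 to 18 over all barcodes, and 0 to 7, 4 to 9, 6 to 16 and 11 to 16 for macrophages, osteoclasts, Arg1/Gpnmb cells and mature neutrophils against their partners. The numbers 1 and 2 are shared by the groups without a stated pairing, and the differences between replicates correlated at −0.074 to 0.119 across genes. Besides the 1 call in immature neutrophils (0 without it), the replicate block gave 5 calls over all barcodes beside 6 and changed no other count. Depth limits the near-absent members, and 2 libraries per group limit every HLU comparison.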
